A study of Mus musculus with 283 samples.

Results

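The 38 genes described here build the machinery that copies DNA and the enzymes that make its precursors. They were chosen by symbol, and all 38 were found among the 45724 gene entries of the tumour and gland table and again in the table of cultured lines. By role they comprise 6 genes of the MCM helicase (Mcm2 to Mcm7), 4 of origin recognition and helicase loading (Orc1, Orc6, Cdc6 and Cdt1) and 6 of helicase activation (Mcm10, Cdc45 and Gins1 to Gins4). Another 5 encode the sliding clamp and its loader (Pcna and Rfc2 to Rfc5), 7 encode primase and polymerase subunits (Pola1, Pola2, Prim1, Prim2, Pold1, Pole and Pole2), and 2 join Okazaki fragments (Fen1 and Lig1). The remaining 8 are the single-strand binding genes Rpa1 to Rpa3, the nucleotide synthesis genes Rrm1, Rrm2, Tyms and Tk1, and the transcription factor gene E2f1.

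Before a cell divides, the origin recognition complex, Cdc6 and Cdt1 load the MCM helicase onto DNA, and Mcm10, Cdc45 and the GINS complex then switch it on. Primase and the polymerases copy the opened strands while the clamp holds them on the template, and ribonucleotide reductase (Rrm1 and Rrm2), thymidylate synthase (Tyms) and thymidine kinase (Tk1) supply the building blocks. E2F factors, held back by the RB protein in resting cells, switch on many of these genes as cells enter S phase, and for that reason the transcripts are widely read as a sign of proliferation in breast tumours.

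The series covers RNA of mouse models of triple-negative breast cancer, the class that lacks estrogen receptor, progesterone receptor and HER2, in relation to immune checkpoint therapy. Of 283 samples, 270 are RNA libraries: 264 from tumours or mammary glands and 6 from cultured lines. The labels class 107 tumour libraries as sensitive, 86 as resistant and 62 as of unknown response, and 9 are normal glands. Most therapy arms belong to 2 families of lines: T11, which the exome labels place on BALB/c, and KPB25L, which they place on FVB. Of the treated models, KPB25L, KPB25L-UV, T11-UV and T11-Apobec are labelled sensitive, and T11, p53-2225L and p53-2336R resistant. UV and Apobec are label words that are not spelled out further. Treated mice received anti-PD1 at 10 mg per kg with anti-CTLA4 at 125 ug, and untreated mice of the same model and time received none. Per the labels, transplanted tumours were orthotopic in syngeneic hosts and assigned at a diameter of 5 mm, a text that is repeated for every sample. The times are 3 days, 7 days and end of study, and the untreated tumours that the labels put at 3 days carry the word Pretreatment in the file headers. Untreated end-stage tumours of other kinds are KPB-Primary, with source names giving K14-Cre and floxed Brca1 and p53, so that deletion follows the keratin 14 promoter, and KPB-1A and KPB-1B, C3-TAG, PyMT (whose source names end in E2FWT) and ILC-Pik3Ca/Cdh1Null. C3-TAG is of unknown response in the labels and resistant in the file headers. The glands are 5 of BALB/c and 4 of FVB, some of them labelled as pooled. Animal ages were not used here. Replicates are numbered within a group, and nothing in the labels ties the numbers across groups.

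Estimated depth was 3.47 to 149.56 M reads per tumour or gland library, with a median of 51.4 M reads, and 36.21 to 76.84 M reads in the cultured lines. By 50 genes that separate the T11 and KPB25L lines, 6 of 27 KPB25L-UV libraries stood on the T11 side, with marker means of 6.22 to 8.35 against 1.62 to 3.28 in the others. They are untreated replicate 3 at 3 days, untreated replicates 3 and 4 and treated replicates 1 and 5 at 7 days, and untreated replicate 2 at the end. KPB25L-UV results are therefore given with and without them. In addition, 4 mouse numbers occur both among treated T11-UV tumours at 7 days and among treated KPB25L-UV tumours at the end. All levels are on the scale log2(normalized signal + 1), on which a difference of 1 is 2-fold for well expressed genes. Differences are limma estimates with their standard errors (SE), and a gene was called at a Benjamini-Hochberg adjusted p under 0.05 over all genes tested. Levels were not scaled per length, so genes are not ranked against each other. In bulk tissue, fewer cells of a type and less RNA per cell cannot be told apart.

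Promoter letters are shown because the members varied together within groups, as described below. RefSeq promoters (GRCm38.p6, from 250 bases before to 50 after the start) were matched for 31 of the 38 genes, and none was matched for Mcm4, Gins1, Gins2, Gins4, Rfc2, Prim2 and Pole. The E2F words TTTCCCGC, TTTCGCGC, TTTGCCGC and TTTGGCGC were searched on both strands, with overlapping matches counted. At least 1 of them stood in 12 of the 31 (38.7%), against 2.3% of all 32851 promoters and 2.9% of the 20149 of protein-coding genes. The 12 were Mcm3, Mcm5, Mcm6, Mcm7, Orc1, Cdc6, Cdt1, Gins3, Rfc3, Pola1, Pold1 and Pole2. The word CCAAT on either strand, the core of the box bound by NF-Y, stood in 61.3% of the members' promoters and in 37.4% of all promoters. TTTGAA on either strand, the core of the cell cycle homology region of late cell-cycle genes, stood in 12.9% and 17.9%. A match is a description of letters in a window and shows no binding. The last 160 bases before the start are shown for 4 genes to which the results return: 3 with E2F words, in capitals and merged where they overlap, and Rrm1, whose window holds none. They lie at chr8:75109349-75109508 on the plus strand (Mcm5), chr1:128359706-128359865 on the minus strand (Mcm6), chrX:93632156-93632315 on the minus strand (Pola1) and chr7:102441535-102441694 on the plus strand (Rrm1).
Mcm5: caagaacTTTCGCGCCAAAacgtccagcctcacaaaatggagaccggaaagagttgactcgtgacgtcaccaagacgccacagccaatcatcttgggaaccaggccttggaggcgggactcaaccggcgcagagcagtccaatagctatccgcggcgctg
Mcm6: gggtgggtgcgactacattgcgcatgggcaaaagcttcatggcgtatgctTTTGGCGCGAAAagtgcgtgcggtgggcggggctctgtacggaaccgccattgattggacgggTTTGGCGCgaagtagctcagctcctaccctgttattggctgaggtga
Pola1: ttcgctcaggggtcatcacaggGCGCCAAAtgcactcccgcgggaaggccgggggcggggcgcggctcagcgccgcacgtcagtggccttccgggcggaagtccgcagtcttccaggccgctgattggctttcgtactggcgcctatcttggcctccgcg
Rrm1: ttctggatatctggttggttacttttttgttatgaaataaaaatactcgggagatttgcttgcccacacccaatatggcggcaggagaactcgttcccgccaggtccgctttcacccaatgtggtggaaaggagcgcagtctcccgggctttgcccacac
The words began 153 and 149 bases before the start in Mcm5, 110, 106 and 47 bases before it in Mcm6, and 138 bases before it in Pola1. Members with and without a word had median differences of 1.73 and 1.74 in the comparison of tumours with glands, and of -0.36 and -0.17 after 7 days of therapy in the sensitive models, both described below.

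Across untreated tissue, the mean of the 38 genes was lowest in normal gland and in ILC-Pik3Ca/Cdh1Null tumours and highest in C3-TAG. FVB glands stood at 9.25 ± 0.26 (SD, n = 4), ILC-Pik3Ca/Cdh1Null tumours at 9.71 ± 0.37 (SD, n = 10) and BALB/c glands at 9.82 ± 0.62 (SD, n = 5), which overlapped. BALB/c replicate 1 stood at 10.92, while the other 4, at 9.46 to 9.69, all lay below the ILC-Pik3Ca/Cdh1Null mean. ILC-Pik3Ca/Cdh1Null replicates 9 and 10 carry the same number and are counted separately. PyMT tumours stood at 10.75 ± 0.39 (SD, n = 5) and KPB-Primary tumours at 11.65 ± 0.27 (SD, n = 24). KPB-1B stood at 11.73 ± 0.12 (SD, n = 4), KPB-1A at 11.96 ± 0.15 (SD, n = 5) and C3-TAG at 12.40 ± 0.26 (SD, n = 11). KPB-Primary spanned 11.02 to 12.07 and so held the whole range of KPB-1B, while the lowest C3-TAG tumour, at 11.79, stood above the KPB-Primary mean.

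**Figure D1:**
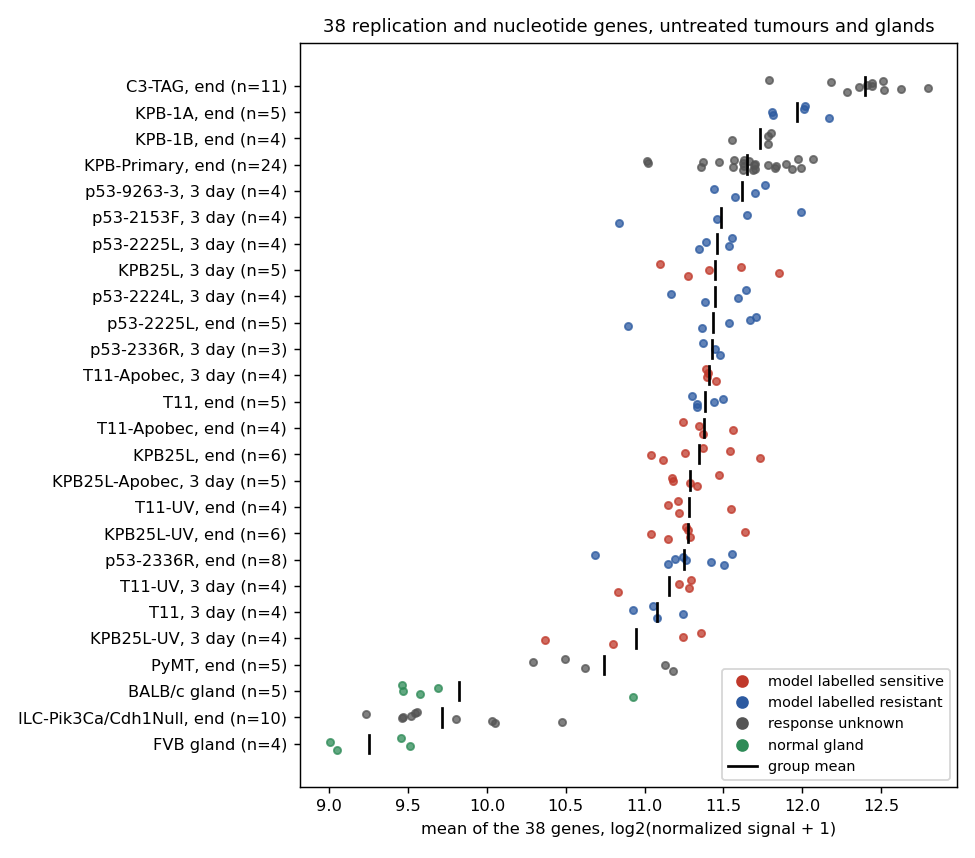
Mean of the 38 genes per library on the log2(normalized signal + 1) axis, 1 point per untreated tumour or gland, with a black bar for the group mean, colours for the labelled response and groups ordered by mean. FVB glands sit lowest at a mean of 9.25, ILC-Pik3Ca/Cdh1Null tumours next at 9.71, and C3-TAG highest at 12.40.

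Against normal mammary gland, nearly every replication gene was higher in tumours. In the equally weighted average of KPB-Primary, C3-TAG, PyMT and ILC-Pik3Ca/Cdh1Null, 37 of 38 members were called higher and 0 lower, where 31.4% of all genes were called higher and 27.7% lower. The median difference was 1.652 for the members and 0.093 over all genes. Rpa1, a subunit of the single-strand binding protein, was the exception, at 0.27 with SE 0.136 and an adjusted p of 0.0802 in limma.

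Initiation factors had some of the widest gaps. Mcm10, which helps to start the helicase, ran from 7.09 through a median of 11.12 to 12.52 in the 50 tumours and from 6.36 through 7.27 to 9.69 in the 9 glands. The ranges overlapped, and the difference was 2.92 with SE 0.20 (limma adjusted p = 4.91e-19). Orc1, the largest subunit of the origin recognition complex, ran from 4.86 through 9.55 to 11.2 in tumours and from 4.77 through 5.66 to 7.96 in glands. Its difference was 2.84 with SE 0.21 (limma adjusted p = 5.03e-18), again with overlap.

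The helicase subunit Mcm6 ran from 9.91 through 13.57 to 15.16 in tumours and from 9.42 through 10.28 to 12.2 in glands, a difference of 2.50 with SE 0.21 (limma adjusted p = 1.28e-15). Pole, the catalytic subunit of the leading-strand polymerase, ran from 7.93 through 12.21 to 13.9 against 7.84 through 8.93 to 10.68, a difference of 2.30 with SE 0.25 (limma adjusted p = 9.64e-12). In both genes the lowest tumours lay within the gland range. The clamp loader subunit Rfc5 ran from 9.79 through 11.98 to 13.47 in tumours and from 8.88 through 9.5 to 11.11 in glands and differed by 2.02 with SE 0.20 (limma adjusted p = 2.6e-13). Rrm2, the regulated subunit of ribonucleotide reductase, ran from 9.13 through 12.18 to 13.5 in tumours and from 8.03 through 8.78 to 11.62 in glands, a difference of 2.66 with SE 0.23 (limma adjusted p = 1.36e-15).

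Genes that work beside the members mostly moved the same way in this comparison. Of 9 fork protection and checkpoint genes all 9 were called higher, with Exo1 at 3.46, Clspn at 2.87 and Chek1 at 2.74. Of 8 origin firing genes 7 were higher, with Ticrr at 3.04, Dbf4 at 2.05 and Topbp1 at 1.16, and of 8 chromatin assembly genes 7 were higher, with Uhrf1 at 2.71. Of 18 other nucleotide enzymes 14 were higher and 3 lower, with Dut at 1.61 and Ctps at 1.39. The E2F, RB and cyclin list had 14 of 21 higher and 4 lower, with Ccna2 at 3.25 and E2f8 at 3.08. By contrast only 1 of 4 further origin recognition subunits was called, Orc2 at 0.51. Of 7 CDK inhibitor genes, brakes on S-phase entry, 3 were higher, among them Cdkn2a at 5.13, and 2 were lower, among them Cdkn2c at -1.27. A list of 20 mitosis genes was higher in full, at a median of 3.25.

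Other tissue moved with this comparison as well. All 10 T cell, 8 B cell, 7 adipocyte, 6 muscle and 6 endothelial markers were called lower in tumours, at medians of -4.88, -7.45, -8.71, -6.18 and -2.45, and 7 of 8 epithelial markers were higher. Their part in the differences of the replication genes was not tested.

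The tumour types differed in how many members rose. C3-TAG had 38 of 38 higher (35.8% of all genes were higher), at a median of 2.955 against 0.096 over all genes. Its differences ran from Rfc2 at 1.12 to Orc1 at 4.83. No named flow cell held both C3-TAG tumours and glands, so the effects of type and of flow cell cannot be told apart there. KPB-1B tumours shared no named flow cell with the glands either. None is named for PyMT and ILC-Pik3Ca/Cdh1Null tumours, so the part of the flow cell was not tested for them. KPB-Primary had 37 of 38 higher (36.5% of all genes), at a median of 2.155 against 0.158, with only Gins4, a GINS subunit, not called at 0.24. KPB-1B had 35 of 38 higher (33.0% of all genes), at a median of 2.263 against 0.223, led by Mcm10 at 4.29.

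PyMT tumours had 30 of 38 higher (21.8% of all genes), at a median of 1.114 against 0.01, led by Rrm2 at 2.92. The members not called there were Gins3, Gins4, Rfc2, Pola2, Pold1, Rpa1, Rpa3 at -0.1 and E2f1 at 0.47.

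ILC-Pik3Ca/Cdh1Null tumours had only 7 of 38 higher and 3 lower, where 18.8% of all genes were higher and 23.5% lower, at a median of 0.124 against -0.086. The salvage enzyme gene Tk1 stood highest, running from 9.62 through 9.96 to 11.26 in 10 tumours and from 8.01 through 9.14 to 11.18 in the glands, a difference of 1.18 with SE 0.24 (limma adjusted p = 6.37e-05). All 4 nucleotide synthesis genes were higher, with Rrm2 at 0.90, Tyms at 0.79 and Rrm1 at 0.76. Mcm6 ran from 9.91 through 11.32 to 12.52 and rose by 0.88, Mcm10 rose by 0.62, and E2f1 ran from 8.84 through 9.5 to 10.24 and rose by 0.50, all overlapping the glands. Rpa3, the small single-strand binding subunit, ran from 8.74 through 8.98 to 9.46 in the tumours and from 9.06 through 9.52 to 9.91 in glands, and fell by 0.53 with SE 0.20 (limma adjusted p = 0.0269). Pola2 and Rpa1 each stood at -0.48 and were called lower. Of the 20 mitosis genes 19 were called higher in these tumours, at a median of 1.17.

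**Figure D2:**
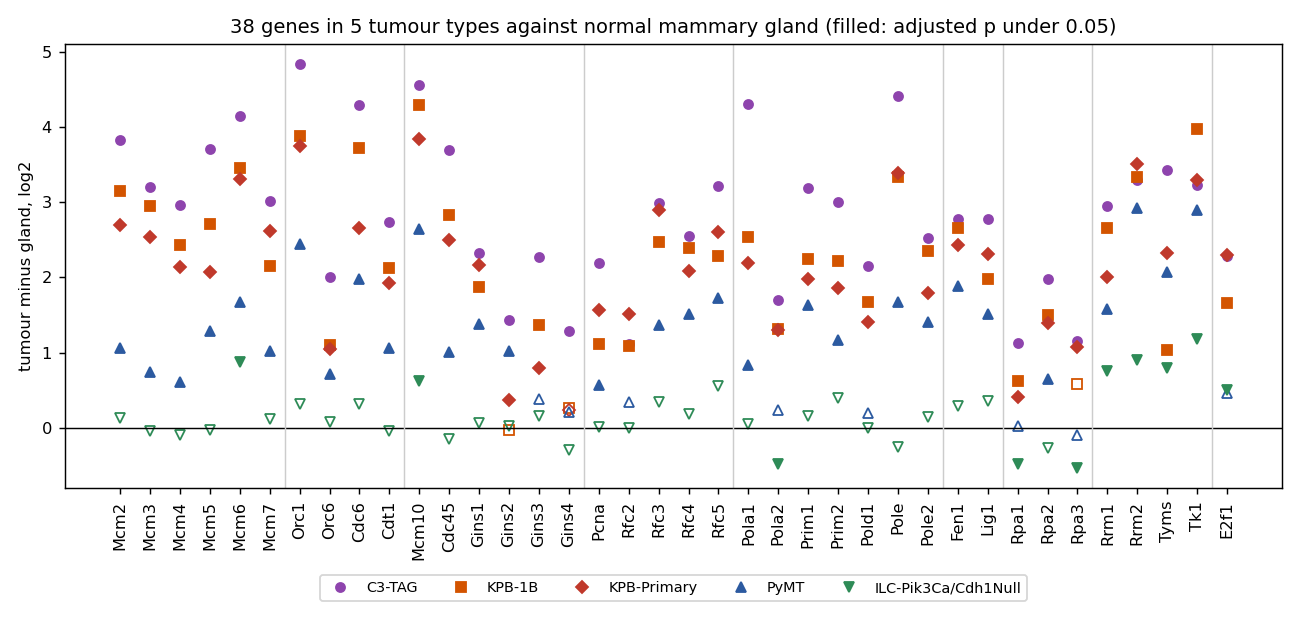
Tumour minus gland difference (log2) for each of the 38 genes, grouped by role between grey lines, 1 symbol per tumour type, filled where the limma adjusted p was under 0.05. C3-TAG lies above 1 for every gene, up to Orc1 at 4.83, and ILC-Pik3Ca/Cdh1Null lies near 0, from Rpa3 at -0.53 to Tk1 at 1.18.

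The glands of the 2 strains differed in 2 members, both higher in BALB/c, where 1.02% of all genes were higher. Pold1, the catalytic subunit of the main lagging-strand polymerase, read 11.72, 10.60, 10.67, 10.75 and 10.40 in BALB/c and 8.86, 10.01, 9.38 and 9.63 in FVB. The helicase subunit Mcm2 read 12.12, 10.58, 10.81, 10.90 and 10.58 against 9.26, 10.24, 9.62 and 10.24. Neither gene overlapped between strains, with differences of 1.36 (SE 0.29) and 1.16 (SE 0.27) and limma adjusted p of 0.00175 and 0.00569. BALB/c replicate 1 was the highest gland in both, and in it the T cell markers averaged 13.06 against 10.64 to 11.24 in the other BALB/c glands, the B cell markers 15.02 against 11.3 to 12.07, the mitosis genes 10.78 against 7.8 to 8.69 and the epithelial markers 10.08 against 12.28 to 12.52. Without it or without FVB replicate 1, 1 member was called, without BALB/c replicate 5 4 were, and with only these 2 groups fitted or with a flow cell term 0 were.

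Set directly against KPB-Primary, C3-TAG tumours had 30 of 38 members higher and 0 lower (28.7% of all genes were higher), at a median of 0.733 against -0.01 over all genes. No flow cell held tumours of both types, so the effects of type and of flow cell cannot be told apart. Estimated depth ran from 19.99 to 79.7 M reads in C3-TAG and from 44.29 to 149.56 M reads in KPB-Primary. Pola1, the catalytic subunit of the polymerase that starts each fragment, ran from 13.07 through 13.87 to 14.57 in the 11 C3-TAG tumours and from 10.69 through 11.73 to 12.52 in the 24 KPB-Primary tumours. Mcm5 ran from 13.75 through 14.17 to 14.77 against 11.5 through 12.59 to 13.41, and Gins3 from 10.0 through 10.28 to 10.78 against 7.63 through 8.85 to 9.74. The groups did not overlap in these 3 genes, which were higher by 2.10 (SE 0.19), 1.64 (SE 0.18) and 1.47 (SE 0.17), with limma adjusted p of 8.09e-15, 1.53e-11 and 5.31e-11. The helicase loader Cdc6 ran from 11.37 through 11.8 to 12.65 against 9.36 through 10.3 to 11.39 and was higher by 1.63. Tyms was higher by 1.10 and Rpa1 by 0.72, both with overlap. Not called were Mcm7, Gins1, Rfc2 at -0.39, Rfc3, Rpa3, Rrm2 at -0.21, Tk1 and E2f1 at -0.01. Of the 20 mitosis genes 14 were higher, and of the 9 fork protection genes all 9.

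PyMT tumours had 26 members lower than KPB-Primary and 1 higher, where 25.6% of all genes were lower and 12.7% higher, at a median of -0.828 against -0.212. E2f1 read 9.92, 9.45, 10.02, 8.87 and 9.31 in PyMT and ran from 10.73 through 11.35 to 12.04 in KPB-Primary, a difference of -1.82 with SE 0.18 (limma adjusted p = 7.39e-12). Mcm3 read 12.17, 11.36, 12.20, 10.77 and 11.22 against 12.39 through 13.33 to 14.04, a difference of -1.80 with SE 0.25 (limma adjusted p = 3.83e-08). Neither gene overlapped between the types. Orc1 read 9.01, 8.08, 8.73, 7.4 and 8.0 against 8.82 through 9.58 to 10.29, a difference of -1.31 with overlap. All 6 MCM genes were lower, as were Pole at -1.71, Rfc3 at -1.53 and Cdc45 at -1.49, while 0 of the 4 nucleotide synthesis genes were called and Gins2 was higher by 0.65. Of the 20 mitosis genes 15 were lower. Lactating gland markers were called higher in 3 of 5, at a median of 7.63, and epithelial markers were higher in 4 of 8 and lower in 2, and their part was not tested. Scaling by the median of ratios moved the median of all genes from -0.212 to -0.052, and 24 members were then lower and 1 higher. No flow cell is named for PyMT libraries, so the effects of type and of flow cell cannot be told apart.

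ILC-Pik3Ca/Cdh1Null tumours had all 38 members lower than KPB-Primary, where 38.9% of all genes were lower, at a median of -1.958 against -0.223. Pole ran from 7.93 through 8.42 to 9.94 in the 10 tumours and from 10.61 through 12.24 to 13.74 in KPB-Primary, a difference of -3.64 with SE 0.26 (limma adjusted p = 1.05e-18). Orc1 ran from 4.86 through 5.99 to 7.48 against 8.82 through 9.58 to 10.29, a difference of -3.43. Mcm10 at -3.21, Rrm2 at -2.62, Mcm3 at -2.58 and Rfc3 at -2.56 likewise did not overlap, so that in all 6 genes every ILC-Pik3Ca/Cdh1Null tumour lay below every KPB-Primary tumour. These 6 were named for the largest difference in their role, and the share of all genes without overlap is not given here. The smallest difference was Gins2, a GINS subunit, at -0.35. All 20 mitosis genes were lower, at a median of -2.78. Stromal and immune markers moved the other way: 7 of 8 fibroblast, 9 of 10 T cell, 8 of 8 B cell, 7 of 7 adipocyte and 6 of 6 muscle markers were higher, and the fibroblast markers averaged 15.32 to 16.41 per library against 8.82 to 13.91. Their part in the lower replication genes was not tested. With the median of ratios the median of all genes moved from -0.223 to -0.099 and 37 members were lower. These tumours have no named flow cell either, so the effects of type and of flow cell cannot be told apart.

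KPB-1B, with 4 tumours, differed from KPB-Primary in 4 members, 2 in each direction (12.6% of all genes were higher and 7.30% lower). Tyms, the enzyme that makes thymidylate, read 10.09, 9.57, 10.18 and 10.17 against 9.94 through 11.56 to 12.16 in KPB-Primary, with overlap. It was lower at -1.28 with SE 0.27 (limma adjusted p = 0.000342) and E2f1 at -0.63, while Cdc6 was higher by 1.06 and Rrm1 by 0.66. Without KPB-1B replicate 3 or 4 the count was 1, and with a term for the flow cell it was 0.

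Among transplanted tumours before or without therapy, the 10 members that differed between T11 and KPB25L at 3 days were all lower in T11. Of all genes 20.4% were lower and 12.2% higher, so the count itself does little to set the members apart. The lines shared no flow cell at this time, so line and flow cell cannot be told apart. The median was -0.367 for the members and -0.139 over all genes. Gins3 read 9.15, 9.01, 8.83 and 8.8 in T11 and 10.58, 10.58, 9.73, 9.97 and 9.64 in KPB25L. Rrm1, the large subunit of ribonucleotide reductase, read 12.38, 12.43, 12.13 and 12.21 against 13.07, 13.68, 13.18, 13.21 and 12.79. Rfc3, a clamp loader subunit, read 10.79, 11.07, 10.76 and 10.81 against 11.77, 12, 11.44, 11.63 and 11.48. None of the 3 overlapped between the lines, with differences of -1.15 (SE 0.23), -0.90 (SE 0.25) and -0.81 (SE 0.19) and limma adjusted p of 2.25e-05, 0.0023 and 0.000309. The other 7 were Mcm3 at -0.67, Orc6, Cdc6 at -0.92 with overlap, Mcm10 at -0.86, Gins2 at -0.54, Pole2 at -0.78 and Fen1 at -0.54, the nuclease that trims Okazaki fragments. With a flow cell term 0 members were called, and Pole, at -0.91 with a limma adjusted p of 0.0553, moved to 0.035.

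Derived lines differed little or unsteadily from their parents at 3 days. T11-Apobec, T11-UV and KPB25L-UV shared no flow cell with their parents at this time, so line and flow cell cannot be told apart there. Only KPB25L-Apobec shared a flow cell with its parent. T11-Apobec had 2 members higher than T11 (3.97% of all genes were higher): Pola2, a subunit of the primase complex, by 0.77 (SE 0.19, limma adjusted p = 0.00518) and the clamp gene Pcna by 0.59 (SE 0.18, limma adjusted p = 0.0317). With only those groups fitted 23 members were called, and with a flow cell term 0. T11-UV against T11 had 0 calls in limma, 0 members at an unadjusted p under 0.05 and a median of 0.063 (0.0480% of all genes were higher and 0.216% lower). KPB25L-Apobec against KPB25L had 0 calls in limma, 4 at an unadjusted p under 0.05 and a median of -0.131 (2.75% of all genes were higher and 1.06% lower). KPB25L-UV had 11 members lower than KPB25L (3.24% of all genes were lower), at a median of -0.441 against 0.049, among them Pole at -1.15 (SE 0.38), Rfc4 at -1.07 (SE 0.27), Cdc6 at -1.0 and Rrm2 at -0.76. Without KPB25L-UV untreated replicate 2 no member was called, without KPB25L-UV replicate 1 or KPB25L replicate 4 6 were, and without KPB25L replicate 2 3 were. It was also 0 with only these groups or with a flow cell term, and 12 at a median of -0.552 without the T11-side library.

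The labels' response classes were compared before therapy over model means, 5 sensitive (KPB25L, KPB25L-UV, KPB25L-Apobec, T11-UV and T11-Apobec) against 7 resistant (T11, KPB-1A, p53-2225L, p53-2336R, p53-2224L, p53-2153F and p53-9263-3). The least deep library, at an estimated 3.47 M reads, is p53-2153F replicate 1. Limma called 0 members and 0 genes of all, with 11 members at an unadjusted p under 0.05. The median was -0.272 for the members and 0.043 over all genes. Rpa2 stood at -1.15 with SE 0.31 (adjusted p = 0.0679) and Gins1 at -1.13 with SE 0.34 (adjusted p = 0.0889), both lower in sensitive models. Orc6, a small origin recognition subunit, was at 0.74 (adjusted p = 0.071) and its sensitive and resistant model means did not overlap. Without the model T11 6 members were called, 5 lower and 1 higher in the sensitive models. All 5 sensitive models are lines of the KPB25L and T11 families. Related lines thus entered as separate units, and the SE and p-values treat them as independent. Leaving out T11 removes the parent of T11-UV and T11-Apobec from the resistant side.

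After 7 days of anti-PD1 with anti-CTLA4, 17 of the 38 genes were lower in treated tumours in the average of the 4 sensitive models, with calls in KPB25L-UV and T11-Apobec, none in T11-UV and KPB25L, and mostly positive differences in KPB25L. Over KPB25L, KPB25L-UV, T11-UV and T11-Apobec, weighted equally, with 18 treated and 15 untreated tumours, the calls were 17 lower and 1 higher, where 21.2% of all genes were lower and 15.5% higher. The median was -0.241 for the members and -0.067 over all genes, and 22 members had an unadjusted p under 0.05.

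Pole ran from 7.78 through 9.64 to 11.29 in treated and from 9.33 through 10.93 to 11.39 in untreated tumours, a difference of -0.94 with SE 0.20 (limma adjusted p = 9.9e-05). Mcm6 ran from 10.01 through 11.98 to 12.81 against 11.77 through 12.63 to 13.13, a difference of -0.62 with SE 0.16 (limma adjusted p = 0.00114). In both genes most treated tumours lay below the median of the untreated, and the groups overlapped. Cdc6, which loads the helicase, ran from 7.13 through 9.54 to 10.77 against 9.19 through 10.08 to 10.94, a difference of -0.52 with SE 0.15 (limma adjusted p = 0.00411). Rrm1 ran from 11.04 through 12.42 to 13.4 against 11.96 through 12.61 to 13.51, a difference of -0.46 with SE 0.13 (limma adjusted p = 0.00312). Both overlapped, with the lowest treated tumours well below every untreated one.

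By role, 5 of 6 MCM genes were lower (Mcm7 at -0.45, Mcm4 and Mcm5 at -0.40, Mcm2 at -0.33), with 2 of 4 origin and loading genes (Orc1 at -0.50) and 5 of 7 primase and polymerase genes (Pola1 at -0.60, Prim1 at -0.59, Prim2 at -0.38, Pold1 at -0.32). All 4 nucleotide synthesis genes were lower, with Tyms at -0.44, Tk1 at -0.37 and Rrm2 at -0.34. Helicase activation had 1 of 6 (Gins4 at -0.20), and the clamp and its loader, Okazaki joining and single-strand binding had none of 5, 2 and 3. Rfc4 stood at -0.34 with an adjusted p of 0.0522 in limma, and passed in 15 of 40 other settings. E2f1 was the member that rose, from 10.72 through 11.13 to 12.29 in untreated to 9.94 through 11.47 to 12.53 in treated tumours, by 0.31 with SE 0.13 (limma adjusted p = 0.0495), a call that 25 of 40 other settings did not keep.

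Fitting only the groups compared left 9 calls, and leaving out the T11-side KPB25L-UV libraries gave 22 lower. Treated tumours had more T cell RNA: 10 of 10 T cell markers were higher, at a median of 2.43, as were 5 of 8 B cell and 5 of 8 macrophage markers, and their part in the lower replication genes was not tested.

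Most neighbouring pathways had more genes lower than higher. Of 20 mitosis genes 18 were lower, at a median of -0.65, with Kif23 at -1.08, Ccnb1 at -0.90 and Ccnb2 at -0.68. Fork protection genes were lower in 7 of 9 (Exo1 at -0.81, Clspn at -0.65, Chek1 at -0.58), chromatin assembly genes in 5 of 8 (Chaf1a at -0.85, Dnmt1 at -0.56, Nasp at -0.45) and origin firing genes in 4 of 8 (Ticrr at -0.62, Topbp1 at -0.55, Donson at -0.41). Further origin recognition subunits were lower in 2 of 4 (Orc2 at -0.45, Orc3 at -0.33). Further polymerase and clamp loader subunits went otherwise, with 2 of 10 higher (Pold4 at 0.36, Pole4 at 0.33), 1 lower (Dna2 at -0.33) and a median of 0.06. Of the 18 other nucleotide enzymes 8 were lower, among them Cad at -0.68, which starts pyrimidine synthesis, and Umps at -0.58. In the same list 2 were higher, with Samhd1, which breaks down deoxynucleotides, at 1.12. Of 21 E2F, RB and cyclin genes 12 were lower (E2f8 at -0.70, Tfdp2 at -0.63) and 2 higher (Rb1 at 0.44). Of the 7 CDK inhibitors Cdkn1a (0.77) and Cdkn2d (0.36) were among the 3 that were higher, and Cdkn2b (-0.88) was among the 2 that were lower.

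**Figure D3:**
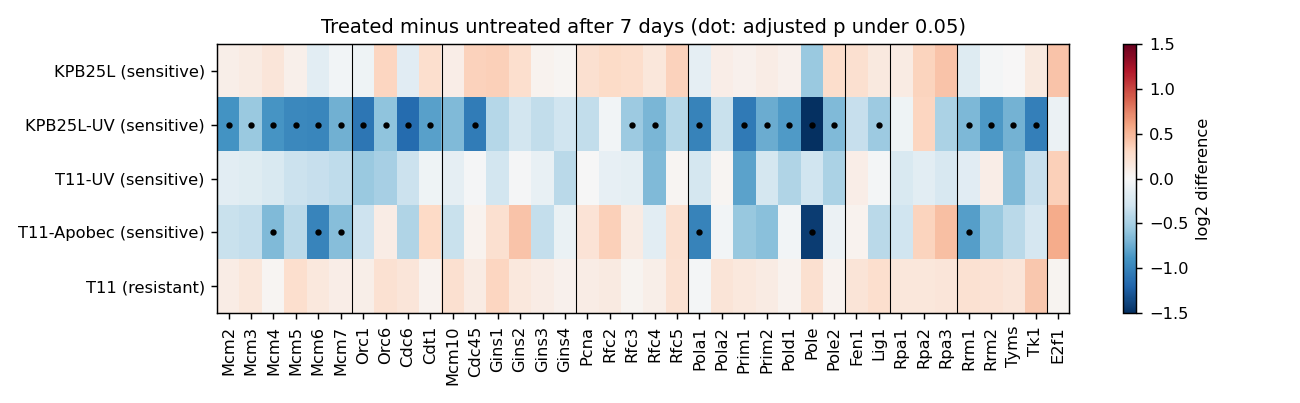
Treated minus untreated difference after 7 days (colour, log2, red higher and blue lower) for the 38 genes in columns and 5 models in rows, with a dot where the limma adjusted p was under 0.05. KPB25L-UV carries 24 dots and T11-Apobec 6, a share like that of all genes there, all lower, and the other 3 models carry none.

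The models did not contribute equally. KPB25L-UV had 24 of 38 members lower and 0 higher (11.4% of all genes were lower), at a median of -0.666 against -0.048. Pole ran from 7.78 through 9.46 to 9.95 in its 6 treated tumours and read 11.25, 10.97, 10.35 and 10.14 untreated, a difference of -1.49 with SE 0.37 (limma adjusted p = 0.00214) with no overlap. Mcm6 ran from 10.01 through 11.81 to 12.12 against 12.26, 12.64, 12.62 and 12.55, a difference of -0.98 with SE 0.29 (limma adjusted p = 0.0104), also without overlap.

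Other KPB25L-UV members overlapped between arms. Cdc6 ran from 7.13 through 9.34 to 9.54 in treated tumours and read 10.34, 10.59, 9.33 and 9.8 untreated, a difference of -1.15 with SE 0.28 (limma adjusted p = 0.00173). Cdc45, a partner of the active helicase, ran from 8.33 through 10.61 to 11.11 against 10.89, 11.28, 11.21 and 11.24, a difference of -1.05 with SE 0.24 (limma adjusted p = 0.00111). Tk1 ran from 9.33 through 11.07 to 11.5 against 11.45, 11.77, 11.45 and 12.15, a difference of -1.02 with SE 0.23 (limma adjusted p = 0.00073). In Cdc45 and Tk1 the untreated tumours lay near or above the treated maximum, while in Cdc6 the untreated tumour at 9.33 lay near the treated median.

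All 6 MCM genes, 4 of 4 origin and loading genes, 6 of 7 primase and polymerase genes and 4 of 4 nucleotide synthesis genes were lower in KPB25L-UV, while 1 of 6 helicase activation genes, 2 of 5 clamp and loader genes, 1 of 2 joining genes and none of the 3 single-strand binding genes were. E2f1, at -0.09, was not called. Rfc4, at -0.68 with an adjusted p of 0.0478 in limma, lost its call in 8 of 17 other settings. Among them were leaving out untreated replicate 2 or 4 or treated replicate 2 or 4. The others included no filter on the mean, scaling by the median of ratios and fitting only the groups compared. The mean of the 38 genes read 10.98, 10.15, 10.96, 9.35, 10.70 and 10.77 in treated replicates 1 to 6 and 11.13, 11.43, 10.84 and 11.10 in the untreated. Replicates 4 and 2 were lowest. Muscle markers averaged 19.53 in treated replicate 4 against 4.0 to 15.94 in the other 5. In treated replicate 2 adipocyte markers averaged 14.99 against 4.11 to 11.89 and B cell markers 10.27 against 4.86 to 7.08. All 10 T cell markers were higher in the treated arm, averaging 8.97 to 11.5 per library against 7.16 to 9.1, and 19 of 20 mitosis genes were lower, at a median of -1.22. The part of these in the result was not tested.

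Without treated replicate 4 the count in KPB25L-UV was 9 at a median of -0.418, and Mcm6, at -0.68, was not called. It was 13 without untreated replicate 2 and 16 without treated replicate 2. Without the T11-side libraries it was 29 at a median of -1.077, without those and treated replicate 4 it was 9, and with only the groups compared it was 0.

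T11-Apobec had 6 of 38 lower and 0 higher, at a median of -0.271 against -0.054. That is the share called over all genes (15.7% lower), so the count itself does not set the members apart. Pole read 8.52, 10.7, 9.77 and 9.58 in treated and 11.39, 10.99, 10.95 and 10.93 in untreated tumours, a difference of -1.42 with SE 0.40 (limma adjusted p = 0.00431). Mcm6 read 10.97, 12.69, 12.16 and 12.18 against 13.13, 12.91, 12.9 and 13.02, a difference of -0.99 with SE 0.32 (limma adjusted p = 0.0123). Rrm1 read 11.04, 12.49, 11.86 and 12.13 against 12.91, 12.56, 12.6 and 12.74, a difference of -0.83 with SE 0.26 (limma adjusted p = 0.0114). Every treated tumour lay below every untreated one in these 3 genes, and treated replicate 1 was the lowest in each.

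The other 3 called in T11-Apobec were Pola1 at -1.0 with SE 0.29, Mcm4 at -0.66 and Mcm7 at -0.63, and all 6 were also among the 24 of KPB25L-UV. E2f1 read 11.56, 11.27, 11.27 and 11.51 in treated and 10.91, 10.85, 10.72 and 10.92 in untreated tumours. It did not overlap, but at 0.55 with SE 0.26 its limma adjusted p was 0.0985. Without treated replicate 1 no member was called, with Pole at -1.05, and with only the groups compared 10 were. That library had an estimated 36.5 M reads against 58.68 to 67.48 M reads in the other treated ones. T cell markers were higher in 9 of 10, averaging 9.74 to 10.33 per library against 7.1 to 7.72, macrophage markers in 4 of 8, and 14 of 20 mitosis genes were lower, and their part was not tested.

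**Figure D4:**
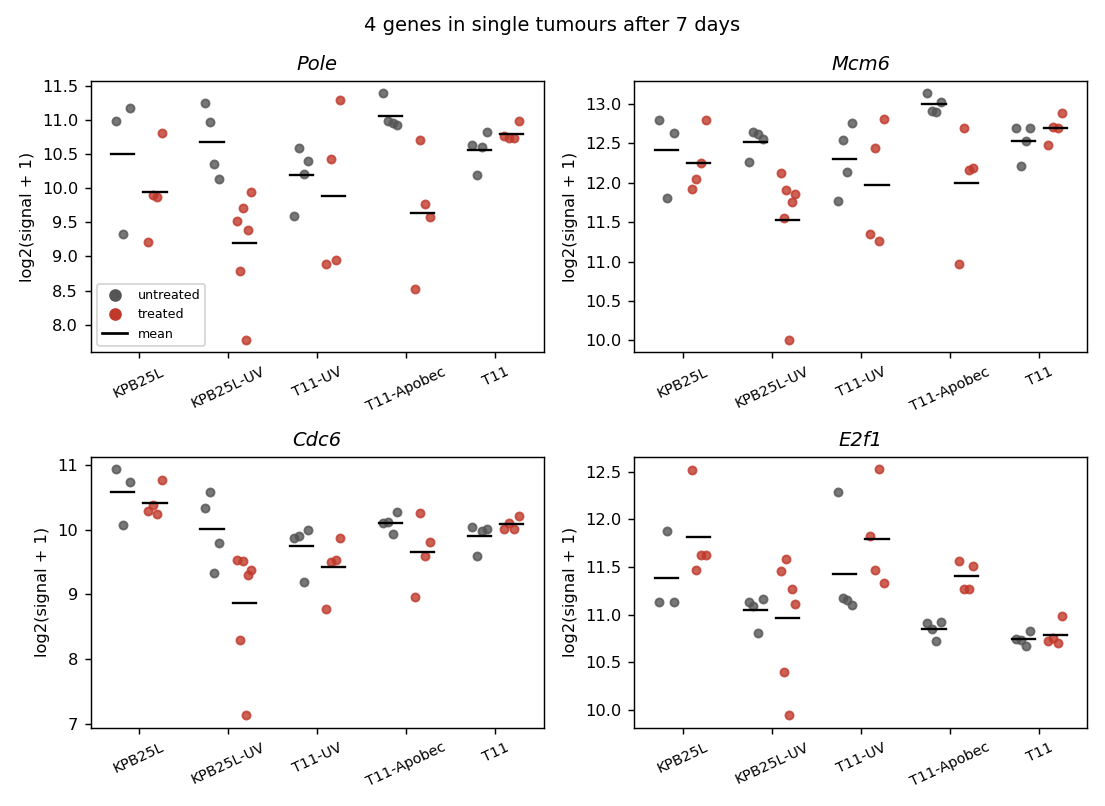
Levels of Pole, Mcm6, Cdc6 and E2f1 as log2(normalized signal + 1) after 7 days, 1 point per tumour, untreated in grey and treated in red, with a bar for each group mean, in 5 models. Treated Pole lies below every untreated tumour in KPB25L-UV and T11-Apobec, while in T11 the treated tumours, at 10.73 to 10.98, lie within or above the untreated range of 10.19 to 10.82.

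T11-UV had 0 members called in limma, with 7 at an unadjusted p under 0.05, at a median of -0.228 against -0.121 (3.15% of all genes were lower and 4.31% higher). Pole read 8.89, 10.43, 8.95 and 11.29 in treated and 9.59, 10.59, 10.21 and 10.4 in untreated tumours, which overlapped, and 10 of 10 T cell markers were higher. Without untreated replicate 1 or treated replicate 4 1 member was called. Its arms were read on different flow cells, and with a flow cell term taken from the other groups 0 members were called, at a median of -0.753 against -0.263. KPB25L had 0 members called in limma and 0 at an unadjusted p under 0.05, and 0% of all genes were called. Its median was 0.125 against 0.01, and 30 of 38 members had positive differences. The mean of the 38 genes stood at 11.52 ± 0.10 (SD, n = 4) in treated tumours and at 11.4 ± 0.05 (SD, n = 3) without therapy, a difference of 0.12, and every treated tumour stood above every untreated one. Pole, at -0.55 the most negative member there, read 9.21, 9.9, 9.87 and 10.81 in treated and 10.99, 9.33 and 11.18 in untreated KPB25L tumours, which overlapped.

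The resistant line T11 had 0 members called in limma and 0 at an unadjusted p under 0.05, with 0% of all genes called. Its median was 0.16 against 0.001 over all genes, and 37 of 38 members had positive differences, up to Tk1 at 0.40, the exception being Pola1 at -0.03. Pole read 10.76, 10.73, 10.73 and 10.98 in treated and 10.63, 10.19, 10.61 and 10.82 in untreated T11 tumours, which overlapped. The difference between the sensitive models' response and that of T11 was tested as an interaction. It called 0 members in limma with 10 at an unadjusted p under 0.05, at a median of -0.405 against -0.076, with 36 of 38 negative and Pole at -1.18, and 1 gene of all (0.00480%) was called. The T11-Apobec response minus that of T11 had 0 calls in limma with 9 at an unadjusted p under 0.05 (median -0.42, with 1.77% of all genes lower and 2.85% higher). That of T11-UV had 0 calls with 6 (median -0.378, with 0.144% of all genes lower and 0.427% higher). These comparisons share the T11 tumours.

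The KPB25L-UV response minus that of KPB25L had all 38 members negative, at a median of -0.81 against -0.09, with 24 at an unadjusted p under 0.05. A single member was called, Cdc45 at -1.40 (SE 0.38, limma adjusted p = 0.0392), where 0.230% of all genes were lower and 0.638% higher. Leaving out single libraries gave 0 to 3 calls, and leaving out the T11-side libraries gave 13.

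Signs across the 4 sensitive models varied by gene. At 7 days 7 members were lower in treated tumours in all 4 models (Mcm6, Mcm7, Orc1, Cdc6, Pola1, Pole and Rrm1), 17 in 3 models, 10 in 2, 4 in 1 and every member in at least 1. These signs were not tested.

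At 3 days fewer members were called in the sensitive models together than at 7 days. They had 2 members higher (6.93% of all genes) and 2 lower (6.92%), at a median of -0.003 against -0.068. Such counts are near the shares over all genes and do not set the members apart. Rpa2 stood at 0.43, E2f1 at 0.38, Pole at -0.62 and Prim2, the large primase subunit, at -0.44. No member was called without replicate 1, 3 or 4 of every group, with only the groups compared or with a flow cell term, and 7 were without replicate 2. The resistant models had 0 members called in limma and 0 at an unadjusted p under 0.05, at a median of -0.092.

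KPB25L had 12 members lower at 3 days (5.67% of all genes were lower and 8.70% higher), at a median of -0.442 against -0.002. They were Mcm3, Mcm4, Mcm5, Mcm7, Cdc6, Cdt1, Gins3, Rfc4, Pola1, Pold1, Pole and Rrm1. Pole read 11.51, 9.32, 10.91, 9.39 and 9.95 in treated and 11.75, 11.74, 11.49, 11.71 and 10.65 in untreated tumours, a difference of -1.25 with SE 0.36 (limma adjusted p = 0.0118). Mcm7 read 13.06, 11.82, 13.11, 11.69 and 11.93 against 13.15, 13.39, 13.03, 13.26 and 12.83, a difference of -0.81 with SE 0.21 (limma adjusted p = 0.00468). Treated replicates 2, 4 and 5 were low and 1 and 3 near the untreated level in both genes. In this comparison 13 of 20 mitosis genes were lower, and higher were 5 of 10 T cell, 2 of 8 fibroblast and 2 of 7 adipocyte markers and 4 of 4 lactating gland markers tested, at medians of 1.64, 1.14, 4.07 and 5.91. Their part in the lower replication genes was not tested. Without replicate 2 or 4 of every group 0 members were called, without replicate 5 6 were, and with only the groups compared or a flow cell term 0 were, at a median of -0.059 with the flow cell term.

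KPB25L-UV had all 38 members positive at 3 days, at a median of 0.558 against 0.01, with 0 called in limma and 22 at an unadjusted p under 0.05. Without the T11-side library 0 were called at a median of 0.666. Its response minus that of KPB25L called 21 of 38 members higher (5.34% of all genes were higher), at a median of 0.99 against 0.02. The clamp loader gene Rfc4 read 9.81, 11.12 and 10.79 in treated and 9.44, 8.77, 10.09 and 10.12 in untreated KPB25L-UV tumours. In KPB25L it read 10.4, 9.32, 11.07, 9.42 and 9.23 treated and 10.98, 11, 10.41, 10.7 and 10.3 untreated. The 2 models thus moved in opposite directions, with overlap in both, and the difference was 1.75 with SE 0.40 (limma adjusted p = 0.00204). Pole differed by 1.65, Cdc6 by 1.60, Mcm7 by 1.40 and E2f1 by 0.26. In the same comparison 15 of 20 mitosis genes were higher and 6 of 8 fibroblast and 5 of 10 T cell markers lower, and their part was not tested. Without the T11-side library 24 members were called. No member was called without replicate 2 of every group, with a flow cell term or with only the groups compared, and the untreated KPB25L-UV tumours of this time were all read on 1 flow cell.

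T11-UV had 3 members higher (6.65% of all genes) and 1 lower (7.44%) at 3 days, at a median of 0.112 against -0.088. These counts are near or below the shares over all genes and do not set the members apart. E2f1 read 13.21, 11.08 and 12.34 in treated and 10.97, 11.10, 11.13 and 11.03 in untreated tumours, a difference of 1.15 with SE 0.28 (limma adjusted p = 0.00561). Prim2 read 8.31, 10.37 and 9.05 against 10.00, 10.22, 10.43 and 10.41, a difference of -1.02 with SE 0.30 (limma adjusted p = 0.0155). Treated replicate 2 lay at the untreated level in both, so both overlapped. Gins2 read 12.60, 11.39 and 11.81 against 10.96, 11.36, 11.22 and 11.34, higher by 0.71 (SE 0.23, limma adjusted p = 0.0272) without overlap, and Rpa2 was higher by 0.85. Treated replicate 1 was the most extreme in E2f1, Prim2 and Gins2. It had an estimated 22.68 M reads, against 47.6 and 38.14 M reads in treated replicates 2 and 3. T11-Apobec (4 at an unadjusted p under 0.05), p53-2225L (8) and p53-2336R (0) had 0 members called in limma, at medians of -0.312, -0.325 and -0.09. In T11-Apobec 0.0767% of all genes were called higher and 0.0480% lower, and in both p53 models 0%. T11 had 0 members called in limma, with 0 at an unadjusted p under 0.05, at a median of 0.099 against 0.083 (0% of all genes were called). The arms of T11 were read on different flow cells at this time, so flow cell and antibodies cannot be told apart.

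At the end of the study almost nothing was called. Limma called 0 members in the sensitive models together, with 3 at an unadjusted p under 0.05 (0% of all genes were called higher and 0.0288% lower), and 0 in the resistant models, with 2 (0% of all genes). Single models had 0 members called in KPB25L, T11-UV, T11-Apobec, T11, p53-2225L and p53-2336R, with 4 at an unadjusted p under 0.05 in T11-UV and 0 in each of the other 5. Of all genes 0.00480% were higher in KPB25L, 0.0719% in T11-UV, 0.0767% in p53-2225L and 0.887% in p53-2336R, and 0.484%, 0.0144% and 0.312% were lower in the last 3. KPB25L-UV had 1 member lower (2.62% of all genes were lower and 3.34% higher), Pola1 at -0.92 with SE 0.27 (limma adjusted p = 0.0214). It read 9.32, 9.26, 10.67 and 9.52 in treated tumours and ran from 10.13 to 11.1 in the 6 untreated, with overlap through treated replicate 3 alone. In KPB25L-UV, T11-UV and T11-Apobec no flow cell held end-stage tumours of both arms. The effects of the flow cell and of the antibodies cannot be told apart in these models, whether or not members were called. Without the T11-side library Pola1 stood at -0.82 with a limma adjusted p of 0.0676, and Pola2, named after its value was seen, was called higher by 0.60. Pola1 was also not called without replicate 1, 2 or 4 of every group or with only the groups compared. Untreated tumours at the end against 3 days, averaged over models, had 0 members called in limma with 2 at an unadjusted p under 0.05, at a median of 0.059 against 0.007 (1.06% of all genes were higher and 4.29% lower). In KPB25L-UV 7 members were higher at the end (2.67% of all genes were higher): Mcm7, Orc1, Cdt1, Rfc4 at 0.91, Pola1, Pold1 and Rpa3. The 2 times shared no flow cell. The count was 0 with a flow cell term, with only the groups compared or without replicate 2 of every group, 3 without replicate 1, 11 after scaling by the median of ratios and 7 without the T11-side libraries. T cell markers were lower at the end in 9 of 10 and adipocyte markers in 5 of 7, and their part was not tested. In p53-2336R Pole2, the second subunit of the leading-strand polymerase, was lower at -0.99 with SE 0.23 (limma adjusted p = 0.00338), where 2.10% of all genes were lower and 1.92% higher. That call was lost without replicate 1, 2 or 3 of every group, with only the groups compared or with a flow cell term.

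Within groups the members rose and fell together. Over 189 libraries of 44 groups, after taking out group means, each gene's Pearson correlation with the mean of the other 37 had a median of 0.76, from Gins2 at 0.16 to Mcm3 at 0.93, and 34 of 38 were over 0.5. E2f1 at 0.21, Rpa3 at 0.34 and Rpa2 at 0.39 were the others below. The mean of the 38 genes correlated at 0.88 with the mean of the 20 mitosis genes and at 0.42 with the log10 of estimated reads, while the cell type marker means gave -0.25 to 0.15. These are descriptions across libraries that share models, hosts and flow cells. Pole varied most within groups, with an SD of 0.57, followed by Rpa3 at 0.49 and Prim1 at 0.48, and Rpa1 varied least at 0.19.

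The counting gives limits for a few members. Exons of Fen1 overlap those of other genes over 84.2% of their length, those of Gins2 over 67.3% and those of Rfc2 over 15.1%, and the strand setting is not given in the sources used here. Reads of Pcna and Tyms cannot be told from those of near-identical pseudogenes.

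The cultured lines, with 1 library each and no replicate check, also differed in these genes. Their table was normalized separately, so no level is set against the tumours. The mean of the 38 genes was 11.4 in KPB_25L_V1_5, 10.8 in KPB_EF1A_APOBEC, 10.41 in the KPB-25L VALIDATION line, 10.73 in T11_EF1A_APOBEC, 9.34 in T11_V5 and 9.53 in the T-11 VALIDATION line. Both T11 lines without the APOBEC label stood lowest.

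T11_V5 had 35 of 38 members more than 2-fold lower than KPB_25L_V1_5, where 23.3% of all genes were, at a median of -1.99 against -0.06. Cdc6 read 7.3 and 11.18, a difference of -3.88, and Rpa3, at 0.28, was the highest. Between the VALIDATION lines 19 of 38 were more than 2-fold lower in T-11 (24.4% of all genes) and 0 higher, from Gins3 at -2.5 to Tk1 at 0.72. T11_EF1A_APOBEC had 30 of 38 more than 2-fold higher than T11_V5 (15.8% of all genes), at a median of 1.39 against 0.23, with Rrm2 at 11.88 and 8.98, a difference of 2.89. KPB_EF1A_APOBEC had 7 of 38 more than 2-fold lower than KPB_25L_V1_5 (7.60% of all genes), at a median of -0.58 against -0.18, with Tyms at 9.1 and 10.64 and Pole at 0.41. The mitosis gene means stood in the same order, from 12.1 in KPB_25L_V1_5 to 9.6 in T11_V5.

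**Figure D5:**
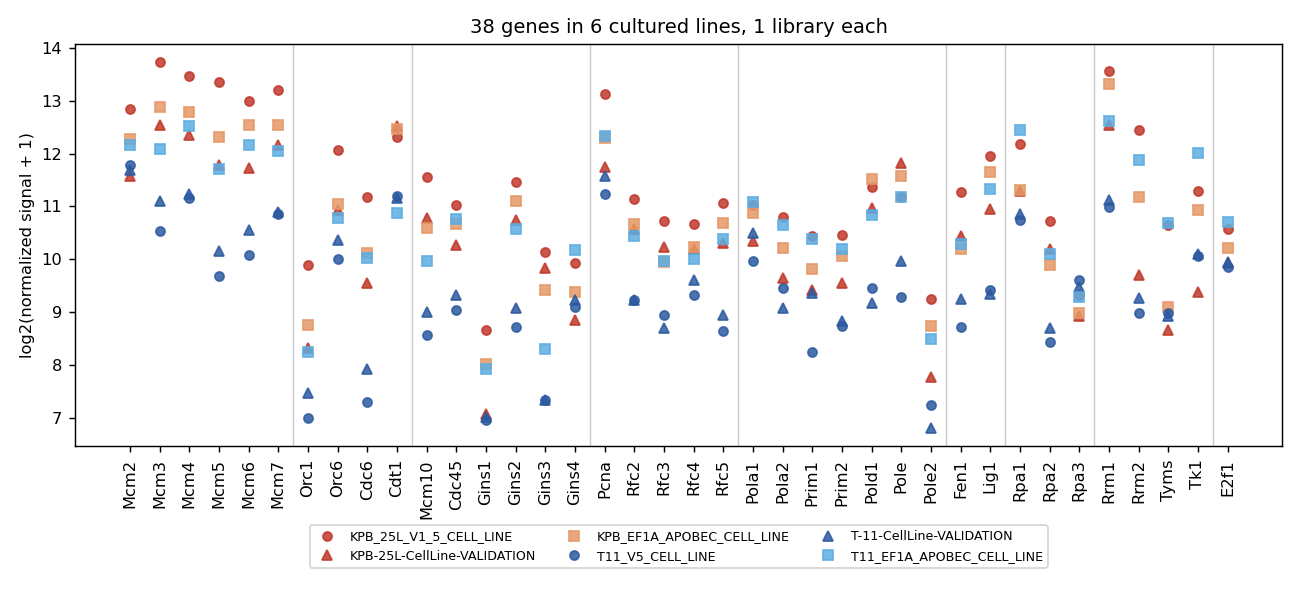
Levels of the 38 genes in 6 cultured lines, 1 library each, as log2(normalized signal + 1), grouped by role between grey lines, with T11 lines in blue shades and KPB lines in red shades. T11_V5 lies below KPB_25L_V1_5 in most genes, as for Cdc6 at 7.3 and 11.18, and T11_EF1A_APOBEC lies between or near the KPB lines.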

How the data were processed

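Polyadenylated RNA of tumours, mammary glands and cultured lines was sequenced from TruSeq mRNA libraries, per the labels' protocols. STAR, SAMtools, Picard, Salmon and the build mm10 are named in the submitters' processing notes, without versions or a strand setting. The values as deposited hold a linear gene-level signal that the authors scaled to the upper quartile, per the file headers (2048.97 among genes above 0 in tumours and glands, 1000 in cultured lines). Low values were whole reads within 0.01 reads for only 28.3 to 82.8% of a library's values, so no test for counts was used. Date-like (39) and repeated (28) entries were left out of 45724.

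Signal was put on a log2(value + 1) scale. Genes above 0 in at least 4 samples and in the upper 66.7% by mean were tested with limma 3.58.1 in R 4.3.3, with 1 mean per group, a variance trend and Benjamini-Hochberg adjustment. Therapy, time and transplanted groups shared a fit of 192 samples, 47 groups and 20848 genes, tumour types and glands a fit of 63 libraries, 7 groups and 20876 genes, and classes a fit of model means over 17920 genes. All 38 members passed the filter in each. Medians, ranges and descriptions used Python 3.11.15 and pandas 2.3.3, and the fits were tested on simulated data. The 2 libraries of 1 untreated KPB25L mouse were averaged to 1 sample. ILC-Pik3Ca/Cdh1Null replicates 9 and 10 also carry the same number but were kept as separate samples. Averaging them was an alternative fit, in which no named member changed its direction or call against KPB-Primary. Where the labels do not say that replicates are separate animals, p-values measure only the spread between samples, which may be technical.

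The members and the gene lists beside them were chosen with earlier results of these data known. Named members of a comparison were the one with the largest absolute difference in each role, for up to 6 roles, with values by sample for most of them, and up to 3 genes per other list by adjusted p. Lack of overlap in named members therefore partly follows from that choice. Interactions between a derived line and its parent were added after seeing the data. So were the fits without single treated KPB25L-UV libraries at 7 days, and the fit without both the T11-side libraries and treated replicate 4. Alternatives changed the pseudocount, the filter, the scaling, the groups fitted, a flow cell term and each replicate. Exome samples were not analysed here.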

Additional observations from a re-analysis of the deposited data

Results flagged for a closer look

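The mean of the 38 genes was searched in 42 groups of 4 to 10 samples for a single tumour or gland far from the rest of its group. Chance singles out about 1 in 20 such groups, and 5 were found. BALB/c gland replicate 1 stood at 10.92 against 9.46 to 9.69 in the other 4. Untreated p53-2336R replicate 7 at the end stood at 10.68 against 11.15 to 11.55, T11-UV untreated replicate 1 at 3 days at 10.83 against 11.22 to 11.29, and KPB-1B replicate 2 at 11.56 against 11.78 to 11.8. T11-Apobec untreated replicate 1 at 3 days stood at 11.45 against 11.39 to 11.4, a small gap in a narrow group.

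A test of the difference itself set the response of KPB25L-UV apart from that of its parent KPB25L in some members, but the calls depended on the fit. At 3 days 21 members were called, all more positive in KPB25L-UV. That count was 0 with only the groups compared, with a flow cell term or without replicate 2 of every group. At 7 days 1 was called, Cdc45, which was more negative in KPB25L-UV. It was lost with only the groups compared and on leaving out several of the single libraries in turn.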

How the results depend on the processing

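Counts of called members, of 38 in each comparison, are given here, all from limma. With only the groups compared in the fit, therapy at 7 days called 9 in the sensitive models, 0 in KPB25L-UV and 10 in T11-Apobec, and therapy at 3 days called 0 in the sensitive models. The same setting gave 23 for untreated T11-Apobec against T11, 0 for KPB25L-UV against KPB25L, 1 for end against 3 days, 0 for the glands, and 0 for the difference in response between KPB25L-UV and KPB25L at either time. A flow cell term gave 0 for therapy at 3 days in the sensitive models, for untreated T11 against KPB25L, T11-Apobec against T11 and KPB25L-UV against KPB25L, for KPB-1B against KPB-Primary, for the glands and for the difference in response at 3 days, and 2 for that at 7 days. For the latter a pseudocount of 10 also gave 2, and leaving out the T11-side libraries gave 13. Pole in T11 against KPB25L turned to 0.035 with the flow cell term. The causes were not tested.

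Leaving out single libraries, replicate numbers or models gave these ranges. For therapy at 7 days they were 14 to 19 in the sensitive models, 9 to 27 in KPB25L-UV, 0 to 8 in T11-Apobec, 0 to 1 in T11-UV, and 0 to 0 in KPB25L, in T11 and for sensitive models against T11. At 3 days they were 0 to 7 in the sensitive and 0 to 0 in the resistant models, and 0 to 0 at the end. For the difference in response between KPB25L-UV and KPB25L they were 0 to 26 at 3 days and 0 to 3 at 7 days. For untreated tumours they were 7 to 13 in T11 against KPB25L, 1 to 2 in T11-Apobec against T11, 0 to 16 in KPB25L-UV against KPB25L, 0 to 0 in T11-UV and KPB25L-Apobec against their parents, 0 to 6 for the response classes and 0 to 0 for end against 3 days. Against glands they were 36 to 38 for the average, 38 to 38 for C3-TAG, 36 to 37 for KPB-Primary, 25 to 31 for PyMT, 8 to 11 for ILC-Pik3Ca/Cdh1Null and 35 to 36 for KPB-1B, and they were 25 to 29 for PyMT and 1 to 4 for KPB-1B against KPB-Primary and 1 to 4 between the glands. Of 726 single-gene values recomputed, 655 kept their direction and side of the threshold, 52 lost a call, 18 gained one and 1 reversed. No paired analysis was possible because the replicate numbers were given in accession order or carry no pairing across groups. Depth, from an estimated 3.47 M reads per library, limits the precision of low genes such as Orc1.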
